A study of Rattus norvegicus with 12 samples.

Results

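The genes described here encode enzymes that make, convert or break down prostaglandins and receptors that bind them. They were taken by symbol from the count table, and all 10 (Ptgs1, Ptgs2, Ptges, Ptges2, Ptges3, Ptgis, Hpgd, Ptger2, Ptger4 and Ptgfr) were found among its 33294 gene symbols. RNA was measured by poly(A)-selected RNA-seq in PAC1 cells, a line of rat pulmonary artery smooth muscle cells, in 4 groups of 3 libraries. The study describes this set of knockdowns in PAC1 cells kept under conditions that promote the differentiated state. It reports that these cells were less differentiated than those of its other RNA-seq experiment. The control group received the scrambled siRNA C2, and the other groups received an siRNA against RBPMS, RBFOX2 or QKI, which are RNA-binding proteins that regulate splicing in smooth muscle. According to the labels, every group was reverse transfected with 90 pmol of siRNA and RNAiMAX lipid, treated again after 24 h and taken 48 h later, whereas the study's methods describe longer intervals that could not be reconciled with the labels. All libraries came from 1 cell line and all cells were transfected, so no untransfected level was measured here.

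Prostaglandins are short-lived lipid signals. Cyclooxygenases convert arachidonic acid, released from membrane phospholipids, to prostaglandin H2, and terminal synthases turn this intermediate into prostaglandin E2, prostacyclin and other products. The products leave the cell and act on receptors of the same or neighbouring cells, and in the vessel wall prostacyclin is known as a vasodilator while prostaglandin F2α contracts smooth muscle.

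The sequence upstream of both cyclooxygenase genes is shown because these genes gave the largest fall and the largest rise among the members. Each line holds the 250 bases before the annotated start, 5′ to 3′ on the strand of the gene, from RefSeq on the GRCr8 build. The Ptgs1 window is chr3:39981169-39981418 (plus strand) and the Ptgs2 window is chr13:64713813-64714062 (plus strand). Capitals mark a match to a searched motif on either strand.
Ptgs1: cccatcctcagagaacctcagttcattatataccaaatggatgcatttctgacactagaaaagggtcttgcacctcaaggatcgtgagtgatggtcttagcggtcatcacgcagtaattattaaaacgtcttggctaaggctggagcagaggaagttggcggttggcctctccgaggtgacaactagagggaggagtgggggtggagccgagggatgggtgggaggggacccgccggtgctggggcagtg
Ptgs2: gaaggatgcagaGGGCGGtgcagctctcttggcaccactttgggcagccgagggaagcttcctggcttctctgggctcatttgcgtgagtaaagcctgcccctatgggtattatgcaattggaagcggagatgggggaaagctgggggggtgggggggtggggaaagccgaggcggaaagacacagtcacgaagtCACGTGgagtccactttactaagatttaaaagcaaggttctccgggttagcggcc
The motifs searched were TATAAA, bound by the basal factor TBP, CACGTG, a form of the E-box, TGACGTCA, the element of the cyclic AMP response, GGGCGG, bound by factors of the Sp family, and TTGCGCAA, a palindrome bound by C/EBP factors. The Ptgs2 window held CACGTG 55 bases and GGGCGG 238 bases before the start, and the Ptgs1 window held no match. Over 33469 RefSeq promoter windows of the same length, CACGTG occurred in 5.59%, GGGCGG in 30.5%, TATAAA in 12.9%, TGACGTCA in 1.59% and TTGCGCAA in 0.14%. These matches describe letters in a window and do not show a binding site. A promoter entry was found for 8 of the 10 members, and Ptges2 and Ptgis had no entry.

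Library totals lay between 111 and 152 M counts. The targeted gene fell in each knockdown, from a mean of 40.7 to one of 7.21 CPM for Rbpms, from 154 to 37.3 CPM for Rbfox2 and from 233 to 26.6 CPM for Qk, the gene of QKI (n = 3 libraries each). CPM are counts scaled by the library total after TMM adjustment, and errors given with ± are SDs of 3 libraries. The target genes also changed outside their own knockdown. Rbpms fell in RBFOX2 and QKI knockdown (log2 fold changes −0.81 and −0.49, adjusted p 2.10e-09 and 9.32e-07, edgeR). Qk fell in RBFOX2 knockdown (−0.42, adjusted p 1.70e-08) and rose in RBPMS knockdown (0.18, adjusted p 2.97e-04). Rbfox2 fell slightly in RBPMS and QKI knockdown (−0.12 and −0.15, adjusted p 0.0193 and 0.00428). The part of these changes in the differences between knockdowns was not tested. The 5 smooth muscle markers (Acta2, Tagln, Myl9, Cnn1 and Myh11) were all detected, and their summed level was 1960 to 2025 CPM in control, 922 to 1041 CPM in RBPMS, 657 to 759 CPM in RBFOX2 and 1311 to 1393 CPM in QKI knockdown. The markers did not move together, since Acta2, Myl9 and Cnn1 fell in all knockdowns, Tagln fell in RBPMS and RBFOX2 knockdown and was at 0.034 in QKI knockdown (log2 fold change, adjusted p 0.592), and Myh11 rose in all (0.34, 1.05 and 0.19 in RBPMS, RBFOX2 and QKI knockdown). Of the endothelial markers, Pecam1 and Kdr lay below 1 CPM on average while Cdh5 and Tek passed it, and the 4 summed to 7.49 to 9.09 CPM in control, 7.84 to 7.95 CPM in RBPMS, 4.31 to 4.82 CPM in RBFOX2 and 5.18 to 5.46 CPM in QKI knockdown. They did not move together either. Cdh5 fell in RBPMS, RBFOX2 and QKI knockdown (−0.28, −1.10 and −1.18). In RBPMS and QKI knockdown Tek rose (0.59 and 0.66), as did Pecam1 (1.70 and 1.27), at 49 counts or fewer per library. Of the 4 leukocyte markers, Ptprc, Itgam and Cd3e lay below 1 CPM, and the list summed to 1.43 to 1.70 CPM in control and reached 2.86 CPM in QKI knockdown. Of the 3 epithelial markers, Krt8 alone passed 1 CPM, and the list summed to 29.4 to 31.6 CPM in control, 36.3 to 44.2 CPM in RBPMS, 71.9 to 73.9 CPM in RBFOX2 and 32.2 to 34.2 CPM in QKI knockdown, where Epcam and Cdh1 rose by 2.62 and 2.23 on the log2 scale but stayed at 60 counts or fewer per library. The part of these shifts in the results that follow was not tested, and in bulk RNA fewer cells of a type and less RNA per cell cannot be told apart. RBPMS-KD 2 differed most from its replicates, and control 3 was the lowest control library for Ptgs1, Ptgs2, Ptges, Ptges2 and Ptgfr and the highest for Ptger4, so values without these libraries are given where they matter.

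Against control, 6 of the 9 members tested passed an adjusted p of 0.05 in RBPMS knockdown, all of them higher. Of all 18438 genes tested 59.4% passed there, with 30.4% higher and 29% lower. In RBFOX2 knockdown 3 members passed, of which 2 were higher and 1 lower, against 60.3% of all genes (30.1% higher and 30.1% lower). In QKI knockdown 6 passed, of which 4 were higher and 2 lower, against 66.9% of all genes (32.9% higher and 34% lower). Adding an absolute log2 fold change above 1, the size threshold of the study, left 2 members in RBPMS knockdown (Ptgs2 and Ptgfr, higher), 1 in RBFOX2 knockdown (Ptgs1, lower) and 3 in QKI knockdown (Ptges and Ptgfr higher, Ptgs1 lower), against 9.66%, 11.7% and 17.5% of all genes. The median log2 fold change over the 9 members was 0.48, 0.18 and 0.57 in RBPMS, RBFOX2 and QKI knockdown, beside 0.0085, 0.015 and 0.0070 over all genes tested. Because the members were chosen with earlier results of these data known, these medians describe them and do not show a shift of the pathway. Hpgd had too few counts to be tested and is not in these medians. All p-values are from edgeR's quasi-likelihood test, adjusted over all genes tested, and the 3 comparisons share their control libraries.

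**Figure D1:**
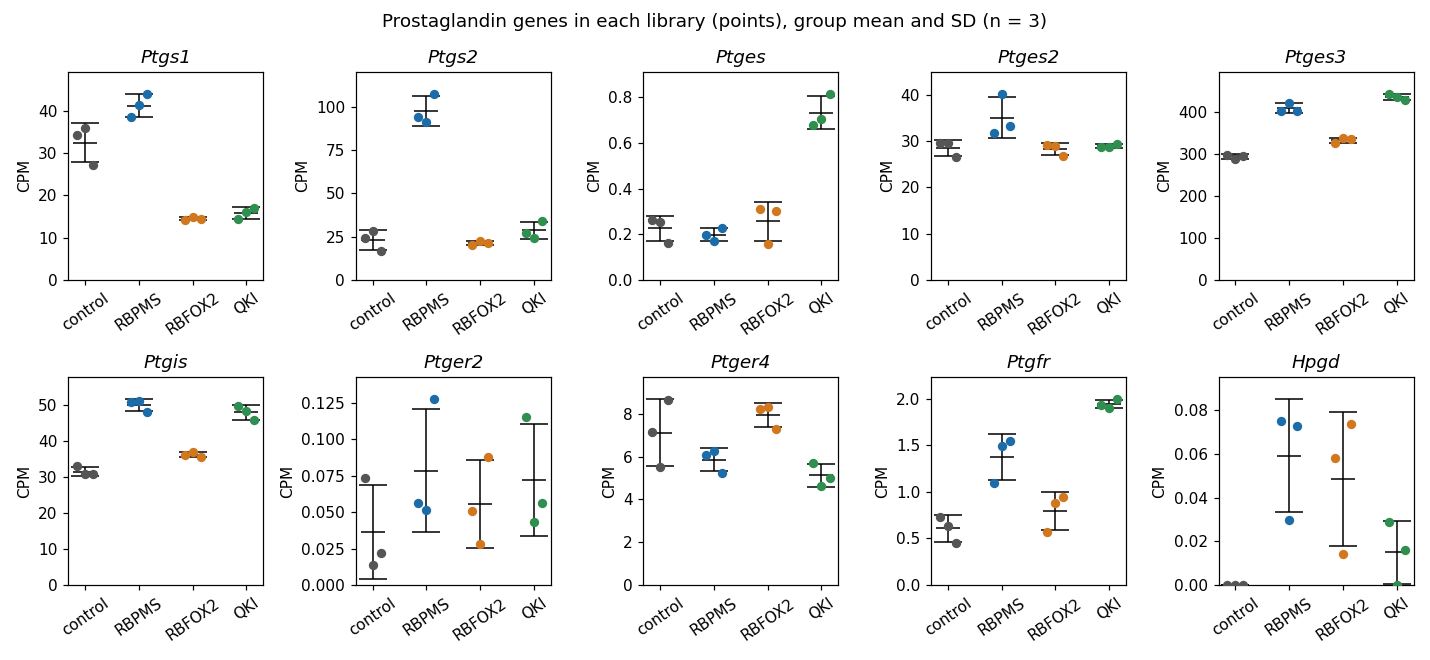
CPM of each of the 10 members (vertical axes, linear and starting at 0) in control and in RBPMS, RBFOX2 and QKI knockdown. Points are the 3 libraries of a group, bars the mean and SD. Ptgs2 stood at 91.0 to 107 CPM in RBPMS knockdown and at 34.0 CPM or less in the other groups, whereas Ptgs1 stood between 14.2 and 16.9 CPM in RBFOX2 and QKI knockdown.

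Both cyclooxygenases rose in RBPMS knockdown, Ptgs2 by far more than Ptgs1, and Ptgs1 fell in RBFOX2 and QKI knockdown, where Ptgs2 did not pass the test. Ptgs1 encodes COX-1, usually described as the constitutive enzyme. It was at 34.2, 36.0 and 27.1 CPM in the control libraries (32.4 ± 4.68), at 38.5, 41.3 and 43.9 CPM in RBPMS (41.2 ± 2.70), at 14.2, 14.8 and 14.4 CPM in RBFOX2 (14.5 ± 0.310) and at 14.3, 16.1 and 16.9 CPM in QKI knockdown (15.8 ± 1.32). Every RBPMS library lay above every control library, and all RBFOX2 and QKI libraries lay below the lowest control. The log2 fold change against control was 0.35 (SE 0.082, adjusted p 0.00157) in RBPMS, −1.16 (SE 0.086, adjusted p 2.74e-09) in RBFOX2 and −1.04 (SE 0.085, adjusted p 7.71e-09) in QKI knockdown. RBFOX2 and QKI knockdown overlapped with each other, with a difference of −0.12 (95% interval −0.30 to 0.047, adjusted p 0.220). The size of the fall in QKI knockdown lay close to the threshold, and it was −0.96 without control 2 and −0.97 without QKI-KD 1, each still past the adjusted p. Without control 3 the rise in RBPMS knockdown was 0.23 (adjusted p 0.00642).

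Ptgs2 encodes COX-2, the inducible enzyme of inflammation and mitogen response. It was at 24.0, 28.1 and 16.6 CPM in control (22.9 ± 5.80) and at 93.9, 91.0 and 107 CPM in RBPMS knockdown (97.4 ± 8.73). The RBFOX2 libraries were at 19.9, 22.3 and 21.3 CPM (21.2 ± 1.21) and the QKI libraries at 27.3, 24.4 and 34.0 CPM (28.6 ± 4.95). The RBPMS libraries stood above all 9 others, while RBFOX2 and QKI libraries overlapped with control. In RBPMS knockdown the rise was 2.09 on the log2 scale (SE 0.14, adjusted p 1.10e-09), a fold of 4.25, and it was 1.90 without control 3 and 2.13 without RBPMS-KD 2. In RBFOX2 knockdown the log2 fold change was −0.12 (95% interval −0.39 to 0.16, adjusted p 0.504), and without control 3 it was −0.30 (adjusted p 0.0258). In QKI knockdown it was 0.32 (95% interval 0.043 to 0.59, unadjusted p 0.0371 and adjusted p 0.0550, edgeR). This value passed without control 2 (0.49, adjusted p 0.00504), without QKI-KD 2 (0.42, adjusted p 0.0217) and without RBPMS-KD 2 (0.32, adjusted p 0.0368), and stood at 0.13 (adjusted p 0.314) without control 3. The spread of the control libraries therefore limits what can be said of Ptgs2 outside RBPMS knockdown.

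Read together, the cyclooxygenase counts were tilted towards Ptgs2 in all knockdowns. The count of Ptgs2 divided by that of Ptgs1 in the same library was 0.701, 0.780 and 0.613 in control, 2.44, 2.20 and 2.45 in RBPMS, 1.40, 1.50 and 1.48 in RBFOX2, and 1.90, 1.51 and 2.01 in QKI knockdown. The means were 0.698 ± 0.0835, 2.36 ± 0.137, 1.46 ± 0.0565 and 1.81 ± 0.261 (SD, n = 3), and no knockdown library overlapped with control. An exact permutation test of 3 libraries against 3 cannot give a p below 0.1, so none is given for the ratio. The ratio is not corrected for transcript length, so it compares groups and does not say which enzyme had more transcripts. Its higher value came with a higher Ptgs2 in RBPMS knockdown and with a lower Ptgs1 in RBFOX2 and QKI knockdown.

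**Figure D2:**
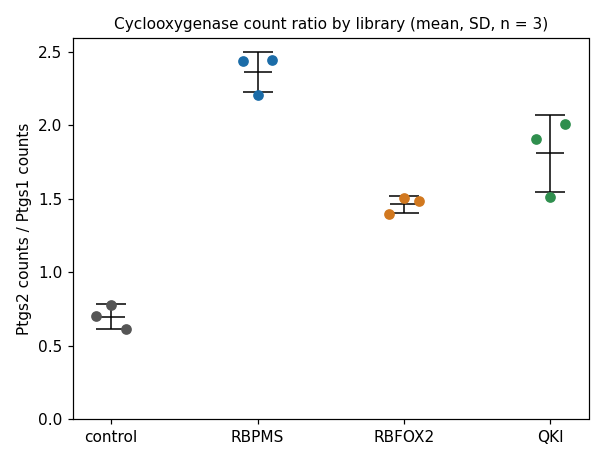
Counts of Ptgs2 divided by counts of Ptgs1 in each library (vertical axis, no unit, starting at 0) for the 4 groups, with points for libraries and bars for mean and SD. Control lay between 0.613 and 0.780 and all knockdown libraries lay at 1.40 or above, with RBPMS knockdown highest.

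The 3 prostaglandin E synthases differed in which knockdown raised them. Ptges encodes the microsomal synthase mPGES-1, an inducible enzyme often found coupled to COX-2. It was rare, with 32, 38 and 22 counts in control (0.226 ± 0.0559 CPM), 21, 23 and 25 counts in RBPMS (0.198 ± 0.0287 CPM), 43, 22 and 41 counts in RBFOX2 (0.256 ± 0.0865 CPM) and 94, 81 and 101 counts in QKI knockdown (0.733 ± 0.0723 CPM). The QKI libraries stood above all others, and the other groups overlapped. The log2 fold change was 1.69 (SE 0.27, adjusted p 3.11e-05) in QKI knockdown, a fold of 3.23. In RBPMS knockdown, where Ptgs2 rose, it was −0.19 (95% interval −0.80 to 0.41, adjusted p 0.616), and in RBFOX2 knockdown 0.18 (95% interval −0.40 to 0.76, adjusted p 0.624). Between RBPMS and QKI knockdown Ptges differed by −1.89 (adjusted p 1.74e-05), while Ptgs2 differed by 1.77 in the opposite direction (adjusted p 6.44e-09).

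Ptges2, which encodes the membrane-associated synthase mPGES-2, rose modestly in RBPMS knockdown. Its libraries were at 29.6, 29.5 and 26.5 CPM in control, 31.8, 40.2 and 33.2 CPM in RBPMS, 29.2, 29.0 and 26.9 CPM in RBFOX2 and 28.8, 28.7 and 29.3 CPM in QKI knockdown. The log2 fold change in RBPMS knockdown was 0.30 (SE 0.070, adjusted p 0.00136), and without RBPMS-KD 2, the highest library, it was 0.19 (adjusted p 0.00320). In the RBFOX2 and QKI groups, which overlapped with control, the 95% intervals were −0.15 to 0.13 and −0.12 to 0.16.

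Ptges3, known both as the cytosolic prostaglandin E synthase and as the Hsp90 co-chaperone p23, rose in all knockdowns with little spread. It was at 299, 288 and 295 CPM in control, 401, 422 and 403 CPM in RBPMS, 326, 338 and 335 CPM in RBFOX2 and 442, 435 and 429 CPM in QKI knockdown. The knockdown groups overlapped neither with control nor with each other. The log2 fold changes were 0.48 (adjusted p 9.48e-10), 0.18 (adjusted p 9.72e-05) and 0.57 (adjusted p 4.37e-11) in RBPMS, RBFOX2 and QKI knockdown. The near copy Ptges3l1 was at 20.0 CPM in control and had log2 fold changes of 0.48, 0.17 and 0.51, and how reads shared by such copies were counted is not stated, so the values of this pair are uncertain to that extent.

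Ptgis encodes prostacyclin synthase, the cytochrome P450 that makes the vasodilator prostacyclin, and it too rose in all knockdowns. Control libraries were at 33.0, 30.8 and 30.9 CPM, RBPMS libraries at 50.8, 51.1 and 48.1 CPM, RBFOX2 libraries at 36.1, 37.0 and 35.7 CPM and QKI libraries at 49.9, 48.3 and 45.8 CPM. Every knockdown library lay above control. The log2 fold change was 0.66 (SE 0.043, adjusted p 6.50e-10) in RBPMS, 0.20 (adjusted p 6.38e-04) in RBFOX2 and 0.61 (adjusted p 1.04e-09) in QKI knockdown. RBPMS and QKI knockdown overlapped, with a difference of 0.058 (95% interval −0.025 to 0.14, adjusted p 0.251), and RBFOX2 knockdown was lower than QKI knockdown by a log2 difference of −0.41 (adjusted p 1.85e-07). As a description without a test, log2 CPM of Ptgis and Ptges3 had a Pearson r of 0.97 over the 12 libraries, which share groups and scaling.

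Hpgd encodes the dehydrogenase that starts the inactivation of prostaglandins. It had 0 counts in all 3 control libraries, 8, 4 and 8 in RBPMS, 8, 2 and 10 in RBFOX2 and 4, 0 and 2 in QKI knockdown. With a floor of 3 counts per control library, its observed mean was 2.66 times the floor in RBPMS and 2.18 times it in RBFOX2 knockdown. The floor covers counting error in control only, not that of the knockdown counts, so these ratios are not lower bounds. All counts of Hpgd were even. If both reads of a pair were counted, the floor is 6 counts and the ratios fall to 1.33 and 1.09. This alternative was added after seeing the data. RBFOX2-KD 2 lay below the floor, and so did the mean of the QKI libraries, for which no ratio is given. At totals of 111 to 152 M counts per library, Hpgd transcripts were at the edge of detection in all groups.

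Of the receptors, Ptgfr rose in RBPMS and QKI knockdown and Ptger4 fell in QKI knockdown. Ptgfr encodes FP, the Gq-coupled receptor of prostaglandin F2α. It had 90, 94 and 62 counts in control (0.607 ± 0.141 CPM), 116, 202 and 170 in RBPMS (1.38 ± 0.249 CPM), 78, 123 and 128 in RBFOX2 (0.793 ± 0.201 CPM) and 268, 219 and 247 in QKI knockdown (1.94 ± 0.0443 CPM). All RBPMS and QKI libraries lay above control in CPM, and the RBFOX2 libraries overlapped with it. The log2 fold change was 1.19 (SE 0.20, adjusted p 7.94e-05) in RBPMS and 1.68 (SE 0.20, adjusted p 8.75e-07) in QKI knockdown. In RBFOX2 knockdown it was 0.39 (95% interval −0.025 to 0.80, adjusted p 0.124), and without RBFOX2-KD 1 it was 0.58 (adjusted p 0.0230). Without control 3 the rise in RBPMS knockdown was 1.02 (adjusted p 6.05e-04), close to the size threshold of 1.

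Ptger4 encodes EP4, a receptor of prostaglandin E2 that raises cyclic AMP. It was at 7.18, 5.54 and 8.65 CPM in control (7.12 ± 1.56), 6.07, 6.25 and 5.24 CPM in RBPMS (5.85 ± 0.537), 8.24, 8.34 and 7.29 CPM in RBFOX2 (7.95 ± 0.579) and 5.72, 4.65 and 5.01 CPM in QKI knockdown (5.12 ± 0.545). Control 2 lay below QKI-KD 1, so the groups overlapped although the fall passed the test, at −0.47 on the log2 scale (SE 0.13, adjusted p 0.00344), which was −0.31 (adjusted p 0.0292) without control 3 and −0.63 without control 2. In the authors' normalised table the fall did not pass (−0.31, adjusted p 0.119, limma). In RBPMS knockdown the value was −0.28 (95% interval −0.53 to −0.032, unadjusted p 0.0412 and adjusted p 0.0671, edgeR). It stood at −0.11 (adjusted p 0.427) without control 3 and passed without control 2 (−0.44, adjusted p 0.00236), without RBPMS-KD 2 (−0.33, adjusted p 0.0427) and with DESeq2 (−0.29, adjusted p 0.0412). In RBFOX2 knockdown it was 0.16 (95% interval −0.079 to 0.40, adjusted p 0.273), and it passed without control 3 (0.33, adjusted p 0.0220) and stood at 0.0044 (adjusted p 0.976) without control 2. When knockdowns are compared directly, the control mean does not enter the difference, though the spread behind its p-value was estimated over all libraries, control included. Ptger4 was higher in RBFOX2 than in QKI knockdown by 0.63 (adjusted p 2.64e-04). It was lower in RBPMS than in RBFOX2 knockdown, with a difference of −0.44 (adjusted p 0.00637) that did not pass in the normalised table (−0.35, adjusted p 0.0922, limma).

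Ptger2 encodes EP2, the other receptor of prostaglandin E2 in this group that raises cyclic AMP. It had 9, 2 and 3 counts in control, 6, 7 and 14 in RBPMS, 7, 4 and 12 in RBFOX2 and 16, 5 and 7 in QKI knockdown. All groups overlapped, and the 95% intervals of the log2 fold change against control were −0.22 to 2.48, −0.72 to 2.03 and −0.29 to 2.39. No difference in Ptger2 was detected at these counts and this spread. Without control 1, which held most of the control counts, the log2 fold change was 2.08 in RBPMS (adjusted p 0.0416) and 2.00 in QKI knockdown (adjusted p 0.0442).

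**Figure D3:**
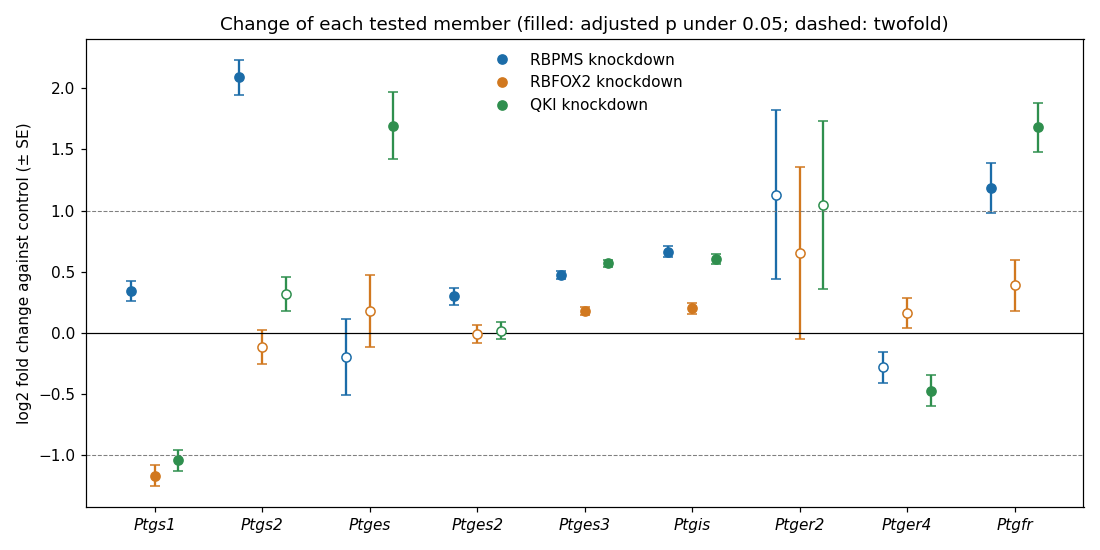
Log2 fold change against control (vertical axis) of the 9 tested members with its SE, in RBPMS (blue), RBFOX2 (orange) and QKI knockdown (green). Filled points passed an adjusted p of 0.05 and dashed lines mark a log2 fold change of 1 in either direction. Ptgs2 in RBPMS knockdown was highest at 2.09 and Ptgs1 in RBFOX2 knockdown lowest at −1.16.

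Differences between knockdowns were also tested directly, without control libraries in the contrast. Past an adjusted p of 0.05 and an absolute log2 difference above 1, Ptgs1 and Ptgs2 were higher in RBPMS than in RBFOX2 knockdown, by 1.51 (adjusted p 2.11e-10) and 2.20 (adjusted p 9.95e-10), where 7.52% of all genes tested passed. Ptgs1 was higher in RBPMS than in QKI knockdown, by 1.39 (adjusted p 2.73e-10), and together with Ptgs2 and Ptges, given above, made 3 members past both thresholds, against 12.2% of all genes. Ptges and Ptgfr were lower in RBFOX2 than in QKI knockdown, with differences of −1.51 (adjusted p 8.20e-05) and −1.29 (adjusted p 1.30e-05), against 18.4% of all genes. Ptgs2 was also lower in RBFOX2 than in QKI knockdown, with a difference of −0.43 (adjusted p 0.0115), which was −0.30 (adjusted p 0.0814) without QKI-KD 3. The order of Ptgfr from QKI to RBPMS to RBFOX2 knockdown was past the test at each step, at −0.49 for RBPMS against QKI (adjusted p 0.0297) and 0.80 for RBPMS against RBFOX2 (adjusted p 0.00236). The first of these steps was lost without RBPMS-KD 1 (−0.35, adjusted p 0.130) and without each of the QKI libraries (−0.48 to −0.51), and in the normalised table (−0.44, adjusted p 0.126, limma).

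The genes whose log2 CPM followed the cyclooxygenases most closely over the 12 libraries were taken from the 9966 others that averaged 5 CPM or more. For Ptgs1 they were Adamts8 (Pearson r 0.990), Trim68 (0.988) and Plp2 (0.984). For Ptgs2, which had the widest range of group means among members of at least 1 CPM, they were Herpud1 (0.994), Slc7a5 (0.981) and Maoa (0.977). Herpud1, an endoplasmic reticulum stress gene, was at 85.3 CPM in control, 181 CPM in RBPMS, 82.2 CPM in RBFOX2 and 99.1 CPM in QKI knockdown. Ptgs1 and Ptgs2 themselves had a Pearson r of 0.69. These correlations describe 12 libraries in 4 groups and carry no test.

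Of 42 other genes of arachidonate release, conversion, transport and signalling, 37 were tested. In RBPMS knockdown 12 were higher, 11 lower and 14 not past the adjusted p. In RBFOX2 knockdown 11 were higher, 14 lower and 12 not past it, and in QKI knockdown 9 were higher, 12 lower and 16 not past it. The genes past it were 62.2%, 67.6% and 56.8% of the 37, beside 59.4%, 60.3% and 66.9% of all genes tested. The median log2 fold changes of these 37 genes were −0.032, −0.12 and 0.018.

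Among prostanoid receptors outside the members, counted with the FP partner Ptgfrn, 5 of 6 tested genes were lower in RBPMS knockdown. In RBFOX2 and in QKI knockdown 4 of 6 were lower, and 1 was higher in each knockdown. Of all genes tested 29%, 30.1% and 34% were lower. Ptgfrn, not itself a prostanoid receptor, fell in all knockdowns (−0.60, −0.51 and −0.19), and Ptger3 held 68 counts or fewer per library. The member receptors are left out of these counts. Of them Ptgfr rose in RBPMS and QKI knockdown, Ptger4 fell in QKI knockdown and Ptger2 passed in none. Ptger1, the EP1 receptor of prostaglandin E2, was at 82.7, 86.4 and 87.0 CPM in control and between 48.2 and 56.2 CPM in all knockdown libraries. Its log2 fold changes were −0.68 (adjusted p 2.06e-10), −0.81 (adjusted p 1.54e-11) and −0.75 (adjusted p 2.46e-11) in RBPMS, RBFOX2 and QKI knockdown. Ptgir, the receptor of prostacyclin, fell as well (−0.25, −0.59 and −0.19, with adjusted p 0.00483, 1.23e-06 and 0.0218), with a sign opposite to that of Ptgis, the synthase of its ligand, in each knockdown. Tbxa2r, the thromboxane receptor, fell in RBPMS knockdown (−0.44, adjusted p 3.34e-05) and rose in RBFOX2 (0.19, adjusted p 0.0245) and QKI knockdown (0.41, adjusted p 3.54e-05).

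Of 5 other terminal synthases tested, Akr1b1, an aldose reductase that can also make prostaglandin F2α, rose in RBPMS knockdown by 1.22 on the log2 scale (adjusted p 1.59e-10), from 171 to 204 CPM in the control libraries to 401 to 494 CPM. It was −0.31 (adjusted p 8.71e-04) in RBFOX2 and 0.38 (adjusted p 1.08e-04) in QKI knockdown. Prxl2b, known as prostamide/prostaglandin F synthase, fell in all knockdowns (−1.08, −0.85 and −1.33, with adjusted p 5.57e-07, 6.49e-06 and 2.98e-08). Of 5 tested genes of transport and breakdown, 1 was higher and 1 lower in RBPMS, and 2 higher and 2 lower in RBFOX2 and in QKI knockdown. The share of all genes tested that passed was 59.4%, 60.3% and 66.9%. Ptgr1, a reductase that inactivates leukotriene B4 and prostaglandin metabolites, rose in all knockdowns (1.44, 0.55 and 1.83, with adjusted p 1.33e-10, 1.69e-05 and 2.52e-12). Zadh2, in the same list, was at 24.4 to 25.6 CPM in control. It was at 15.1 to 16.6 CPM in RBPMS, 17.1 to 17.6 CPM in RBFOX2 and 15.7 to 16.3 CPM in QKI knockdown. The prostaglandin transporter Slco2a1 rose in QKI knockdown (0.94, adjusted p 4.92e-07) and fell in RBFOX2 knockdown (−0.33, adjusted p 0.0166).

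Among 11 tested genes of arachidonate release, Pla2g4a, the cytosolic phospholipase A2, rose in QKI knockdown (0.40, adjusted p 1.19e-06). It changed less in RBPMS (0.15, adjusted p 0.0123) and RBFOX2 knockdown (−0.12, adjusted p 0.0374). Mgll, the lipase that frees arachidonate from 2-arachidonoylglycerol, rose from 11.2, 12.5 and 13.8 CPM in control to 47.1, 47.9 and 45.0 CPM in RBFOX2 knockdown, by 1.90 on the log2 scale (adjusted p 4.15e-14). Mgll rose less in RBPMS knockdown (0.71, adjusted p 1.85e-08) and was at −0.027 in QKI knockdown (adjusted p 0.713). Faah, which hydrolyses anandamide, fell in all knockdowns (−1.41, −0.97 and −2.61, with adjusted p 1.03e-06, 4.65e-05 and 7.75e-10). The secreted phospholipase Pla2g5 rose in RBPMS (0.46, adjusted p 0.0333) and RBFOX2 knockdown (1.30, adjusted p 3.42e-06) and fell in QKI knockdown (−0.88, adjusted p 6.94e-04), at 49 to 300 counts per library. Of 6 tested leukotriene and lipoxygenase genes none passed in RBPMS knockdown, and 1 passed in each of the other knockdowns. Of all genes tested 59.4%, 60.3% and 66.9% passed in RBPMS, RBFOX2 and QKI knockdown. In this branch Alox5, Alox15 and Ltc4s stood at 26 counts or fewer per library, where a change could hardly be detected. Of 4 genes that re-esterify arachidonate, 2 rose and 2 fell in RBPMS and in RBFOX2 knockdown, and 1 rose and 1 fell in QKI knockdown.

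**Figure D4:**
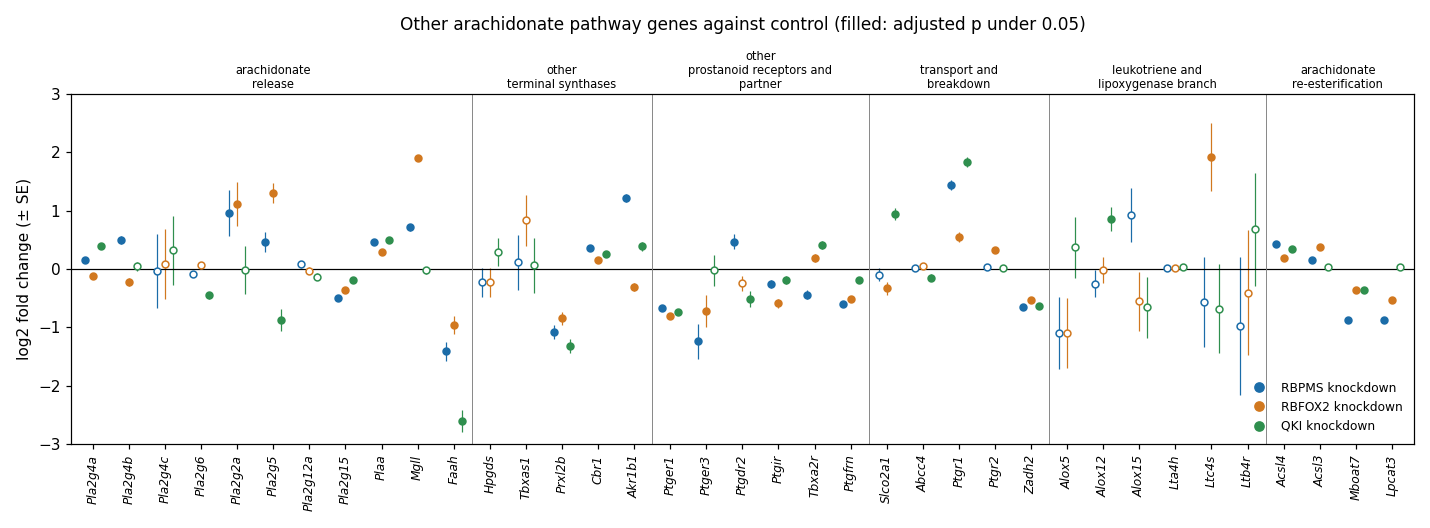
Log2 fold change against control (vertical axis) with its SE for the 37 tested genes of the wider pathway, grouped by role, in RBPMS (blue), RBFOX2 (orange) and QKI knockdown (green). Filled points passed an adjusted p of 0.05. Ptger1 and Ptgir lay below 0 in all knockdowns, and Faah in QKI knockdown was lowest at −2.61.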

How the data were processed

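RNA-seq of 12 PAC1 libraries was analysed from tables deposited by the authors, who give raw counts per gene (featureCounts on STAR alignments to mRatBN7.2 with RefSeq genes) and, for 22320 symbols, a normalised signal made from them by noise filtering with noisyR and quantile normalisation. The submitters' processing notes name STAR 2.5.2a. The methods state subsampling to an equal depth, whereas the totals of the deposited counts differ and exceed that depth, so they may not be counts of the subsampled reads or may count a fragment more than 1 time. Whether counting used strand, and how it treated shared or overlapping reads, is not stated. Annotated lncRNAs overlap Ptges2, Ptges3, Ptger2 and Ptger4, and none exceeded 42 counts. Of count values from 1 to 19, 68.1% were even, against 50.9% of large values, so counts may not be single fragments, and halved counts were also fitted.

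The deposited counts entered edgeR 4.0.16 (R 4.3.3). The filter filterByExpr kept 18438 genes with 99.99% of counts, and TMM scaled the libraries. Groups were compared in 1 model of all libraries by glmQLFit and glmQLFTest, two-sided, with Benjamini-Hochberg adjustment over all genes tested. Alternatives were other scalings and filters, DESeq2 1.42.0, limma 3.58.1 on the deposited signal as log2(value + 1) and log2(value + 5), halved counts, the 6 libraries of a comparison, a replicate block, glmTreat and leaving out each library. The SE of a log2 fold change is its size over the square root of F, and 95% intervals are normal.

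The members and gene lists were chosen with earlier results of these data known. Named genes are the members, the siRNA targets, listed pathway genes of at least 1 CPM past both thresholds in a knockdown, those needed to describe a list, and the 3 genes most correlated with each of Ptgs1 and Ptgs2. Groups come from the sample titles. The study states at least 3 biological replicates, the labels do not say what separates the libraries, and p-values measure the spread between them. Chi-square per degree of freedom within groups was 4.64 to 57.8, so no library was a duplicate. Depth covers counting error only. Promoter coordinates are of GRCr8, not the build of the counts, and lengths, GC content and protein sequences were not used here.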

Additional observations from a re-analysis of the deposited data

How the results depend on the processing

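Of 1158 recomputed values of 54 member log2 fold changes, 1101 kept direction and side of the threshold, 18 lost the call, 17 gained it and 22 reversed, and 32 of the 54 were the same throughout. With a mean of at least 200 counts, which drops Ptges, Ptgfr and Ptger2, the members past both thresholds were 1 in RBPMS, 1 in QKI and 0 in RBFOX2 against QKI knockdown, in place of 2, 3 and 2. With glmTreat, a stricter test of the same size, they were 1 in RBPMS, 0 in RBFOX2 and 0 in RBFOX2 against QKI knockdown. With no filter there were 2 in RBFOX2 knockdown. Leaving out single libraries gave 3 to 5 members past the adjusted p in RBFOX2 knockdown, with 5 without control 3. Reversed values, none past the threshold, were: for Ptges in RBFOX2 knockdown, −0.043 and −0.036 in the normalised table and −0.014 to 0.43 over left-out libraries. Ptgs2 in RBFOX2 knockdown ranged over left-out libraries from −0.30 to 0.060. Ptges2 in RBFOX2 knockdown was 0.046 with library totals, 0.014 with the filter on the mean, 0.023 and 0.023 in the normalised table, and −0.061 to 0.022 over left-out libraries, which gave −0.033 to 0.045 in QKI knockdown and −0.056 to 0.0028 between RBFOX2 and QKI. Ptgis in RBPMS against QKI was −0.072 with library totals, which moved the median of all genes by −0.13, and −0.037 and −0.037 in the normalised table. Ptger2 was −0.045 in RBPMS against QKI with library totals, and over left-out libraries ranged from −0.43 to 0.62 there, from −0.042 to 0.96 in RBPMS against RBFOX2 and from −0.88 to 0.14 in RBFOX2 against QKI. The cause was not tested. Ptgs1 in QKI knockdown was −0.96 with library totals and −0.90 in the normalised table, where the fall of Ptger4 in QKI knockdown did not pass. Ptger4 in RBPMS knockdown also passed with library totals (−0.32, adjusted p 0.0353) and with no filter (−0.30, adjusted p 0.00282). Ptgs2 in QKI knockdown passed with library totals (0.40, adjusted p 0.0188), no filter (0.30, adjusted p 3.78e-05) and the filter on the mean (0.35, adjusted p 0.0423).

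The labels give same-numbered libraries a shared number and no more. Their deviations from group means correlated between −0.055 and 0.039 over all genes tested. Rare genes with large counting error are included, so these values cannot exclude shared handling of same-numbered libraries. With the replicate block the members past the adjusted p were 6, 3 and 6 in RBPMS, RBFOX2 and QKI knockdown, as without it. Ptges, Ptgfr, Ptger2 and Hpgd rest on the fewest counts.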
